A study of Mus musculus with 2 samples.

Results

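The 10 globin genes of the mouse were described in erythroblasts, which are red cell precursors that still have a nucleus. They were found by symbol through Ensembl gene identifiers, and all 10 had a row among the 43346 Ensembl genes of the deposited tables. Both libraries belong to 1 group: primary erythroblasts of adult male C57BL/6J mice, 5 to 6 weeks old, whose total RNA was depleted of ribosomal RNA (100 ng per library, ScriptSeq kit). The cells came from bone marrow, per the title of the isolation protocol, and how pure they were is not stated. The labels count the libraries as biological replicates 1 and 2, with a biosample each but a single donor record, so their spread may in part be technical. The labelled size range, with no unit, was 200 to 764 for replicate 1 and 138 to 1000 for replicate 2, and its part in the results was not tested. No genotype, treatment or time differs between the libraries, the labels name no engineered allele or agent, and there is no contrast of conditions and no p-value.

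Hemoglobin is a tetramer of alpha-like and beta-like globin chains, each holding a heme. In the mouse the alpha-like genes lie together on chromosome 11 and the beta-like genes on chromosome 7. Within each cluster the embryonic genes are used by the primitive red cells of the yolk sac and the adult genes by the definitive red cells of fetal liver and bone marrow. The theta genes are alpha-like genes whose part in hemoglobin is not settled.

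The alpha cluster spans Hba-x, Hba-a1, Hbq1b, Hba-a2 and Hbq1a, in this order on the plus strand, from position 32276400 to 32300873 of chromosome 11 (GRCm38). The beta cluster lies on the minus strand of chromosome 7, from 103812524 to 103853216. There the embryonic gene Hbb-y stands first in the direction of transcription, followed by Hbb-bh1 and Hbb-bh2 and then by the adult genes Hbb-bs and Hbb-bt.

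Upstream sequence is shown for the most abundant alpha and beta gene, for both theta genes and for 1 embryonic gene. These cover the tiers of level described below. RefSeq entries (GRCm38.p6) matched 9 of 10 members; Hbb-bh1 is named only. Each run is the 120 bases that end directly before the most upstream annotated start, written 5′ to 3′ on the strand of the gene. Capitals mark matches on either strand to the motifs CCAAT and CACCC, to the motif GATA, and to TATAAA or its variant ATAAAA, which can overlap each other. The runs lie at chr11:32296369-32296488 (Hba-a2, plus strand), chr7:103813997-103814116 (Hbb-bt, minus strand), chr11:32286844-32286963 (Hbq1b, plus strand), chr11:32299949-32300068 (Hbq1a, plus strand) and chr7:103853217-103853336 (Hbb-y, minus strand).
Hba-a2: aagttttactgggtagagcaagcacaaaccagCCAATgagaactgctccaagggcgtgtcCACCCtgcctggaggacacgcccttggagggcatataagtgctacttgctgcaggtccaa
Hbb-bt: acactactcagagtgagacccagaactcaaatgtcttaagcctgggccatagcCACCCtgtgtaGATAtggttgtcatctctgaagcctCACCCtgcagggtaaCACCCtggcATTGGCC
Hbq1b: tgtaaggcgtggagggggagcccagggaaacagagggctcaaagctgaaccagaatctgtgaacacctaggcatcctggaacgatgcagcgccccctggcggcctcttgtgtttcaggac
Hbq1a: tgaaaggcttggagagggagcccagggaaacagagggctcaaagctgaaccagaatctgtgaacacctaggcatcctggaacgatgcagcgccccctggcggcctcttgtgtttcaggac
Hbb-y: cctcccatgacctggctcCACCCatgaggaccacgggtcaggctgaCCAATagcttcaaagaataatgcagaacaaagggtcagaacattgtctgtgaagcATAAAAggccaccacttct

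The motif search covered the 250 bases before the RefSeq start, on both strands; the runs above are parts of these windows. GATA was present in 9 of 9 windows, against 53.6% of 32851 RefSeq windows, and CCAAT in 7 of 9, against 33.8%. The CACCC motif was present in 6 of 9 windows (52.0% of all), TATAAA in 2 of 9 (12.4%) and ATAAAA in 1 of 9 (17.0%). The 4 adult genes each held the first 3 of these motifs. In Hba-a2 the CCAAT match began 91 bases and the nearest CACCC match 63 bases before the RefSeq start. In Hbb-bt the run ends 73 bases before the RefSeq start, where an annotated exon begins. Its last capitals are the reverse complement of CCAAT followed by the first letters of a further match, and TATAAA, 28 bases before the RefSeq start, lies outside it. The theta windows held the CCAAT motif and the GATA motif, but these matches lie farther upstream than the printed runs, and the CACCC motif was not among their letters. The windows are not independent: those of Hba-a1 and Hba-a2 share an identical run of 297 of 300 bases, and those of Hbq1b and Hbq1a differ at 11 of 250 positions.

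Replicate 1 held 37312624 expected counts and replicate 2 held 22464724. Deposited TPM, a measure of transcript abundance, divides counts by effective length and is a share of all features, of which nuclear protein-coding genes held 11.3% in replicate 1 and 6.89% in replicate 2. Levels are therefore given as coding-scaled TPM, that is, TPM set to a sum of 1000000 over 21461 nuclear protein-coding genes in each library. Detected means a level of at least 1 on this scale in replicate 1 and in replicate 2, which 43.9% of these genes reached. Among marker genes, 12 of 12 erythroid markers were detected, and their median was 1171 ± 213 coding-scaled TPM (SD, n = 2, as for every ± below). The summed level of these 12 was 21033 coding-scaled TPM in replicate 1 and 23304 in replicate 2. All 5 late maturation markers were detected as well, with a median of 1122 ± 38.2. Of the other cell types, neutrophil markers were abundant, with 10 of 10 detected, a list median of 742 ± 127, and a summed level of 20396 coding-scaled TPM in replicate 1 and 19914 in replicate 2. Detected were also 4 of 7 megakaryocyte markers (median 4.77 ± 0.796), 7 of 7 monocyte and macrophage markers (29.9 ± 5.42), 2 of 5 B cell markers (0.456 ± 0.235) and 2 of 5 T and NK cell markers (0.851 ± 0.178). The part of these cells in the globin levels was not tested.

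The globin genes fell into 3 tiers, and the adult tier stood apart by far more than the libraries differed. The 4 adult genes stood between 15611 and 283079 coding-scaled TPM in either library, the 2 theta genes between 17.8 and 146, and the 4 embryonic genes at 2.32 or below. The gap between the theta and embryonic tiers was much smaller. The highest embryonic level, that of Hba-x, rests on 12 counts and was 0.711 in replicate 1. By this measure 6 of the 10 genes were detected, namely the adult and the theta genes. In bulk RNA a larger number of expressing cells and more RNA per cell cannot be told apart.

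Hba-a2, which encodes adult alpha globin, stood at 283079 coding-scaled TPM in replicate 1 and 235843 in replicate 2. It ranked first among the protein-coding genes in both libraries. Hbb-bt, an adult beta globin gene, stood at 39663 and 48425, and Hbb-bs, the other adult beta globin gene, at 39090 and 28462. Hbb-bt ranked 2 and Hbb-bs 3 in both libraries. Hba-a1, the other adult alpha globin gene, stood at 26051 and 15611. It was the lowest of the adult genes in both libraries, ranking 4 in replicate 1 and 5 in replicate 2, where Gm10800 stood above it at 20890 coding-scaled TPM (7899 in replicate 1). By mean level the order was Hba-a2 (259461 ± 33401), Hbb-bt (44044 ± 6196), Hbb-bs (33776 ± 7515) and Hba-a1 (20831 ± 7382). Taken within each library, Hba-a2 minus Hbb-bt was 215417 ± 39596 and Hbb-bs minus Hba-a1 was 12945 ± 133, both larger than their spread. Hbb-bt minus Hbb-bs was 572 in replicate 1 and 19963 in replicate 2, so at gene level this pair did not differ beyond its spread (10267 ± 13711). Gene levels sum over all annotated transcripts, including those with a retained intron that are described below.

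**Figure D1:**
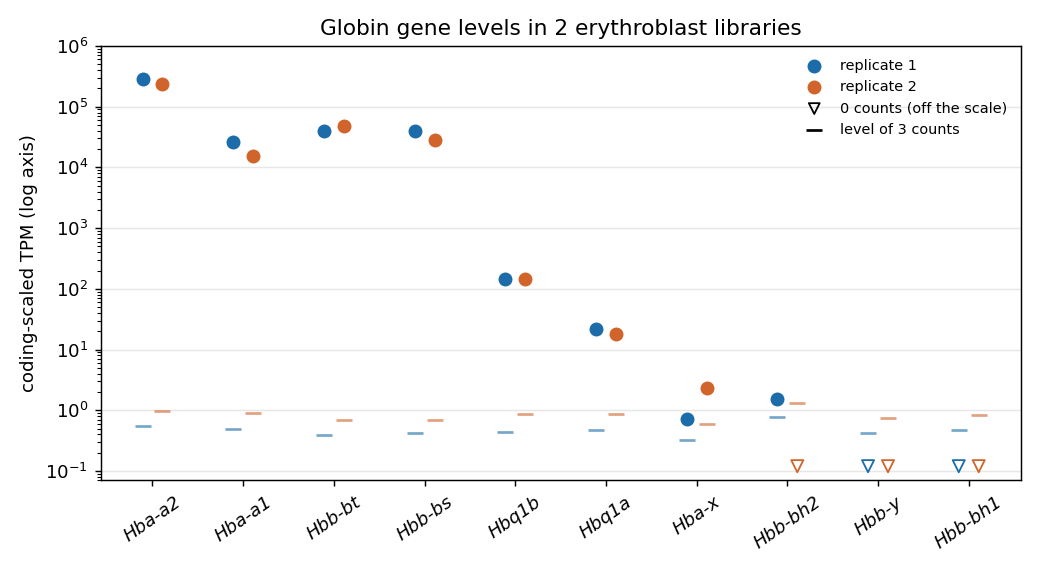
Level of each globin gene in coding-scaled TPM (log axis), with 1 point per library; short bars mark the level that 3 counts would give, and open triangles mark genes with 0 counts. The adult genes stand at 15611 or above, the theta genes at 17.8 to 146 and the embryonic genes at 2.32 or below.

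The 4 adult genes together held 38.8% and 32.8% of nuclear protein-coding TPM in replicates 1 and 2 (35.8% ± 4.21). The 5 highest other protein-coding genes by mean TPM (Gm10800, S100a8, Slc4a1, Tmcc2 and Pabpc1) together held 3.40% and 5.03%. Among these, Gm10800 differed widely between the libraries (7899 and 20890 coding-scaled TPM). With Gm10800 left out of the coding genes, the adult globin share was 39.1% and 33.5%. The share of globin depends on the unit: of protein-coding counts, which are not divided by length, it was 10.1% ± 0.864. The alpha genes took 30.9% and 25.1% of coding TPM and the beta genes 7.88% and 7.69%. The beta share thus differed between the libraries by less than the alpha share did. It is a sum of opposite differences, since in replicate 2 Hbb-bt was higher and Hbb-bs lower.

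Alpha globin TPM was 3.93 times beta globin TPM in replicate 1 and 3.27 times in replicate 2 (3.60 ± 0.463). By counts the ratio was 2.93 and 2.37 (2.65 ± 0.395). Alpha exceeded beta in both libraries and in both units. The most abundant alpha gene, Hba-a2, had a shorter effective length (the part of a transcript in which a fragment can start), 364 and 402 bases, than the most abundant beta gene, Hbb-bt, with 513 and 551 bases. Length enters the ratio by TPM and not the ratio by counts. Both ratios are at gene level and include retained-intron transcripts, described below. In replicates 1 and 2 the one of Hbb-bs had a deposited TPM of 2271 and 499. That of Hba-a1 had 1602 and 606. No ratio was formed from coding transcripts alone.

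**Figure D2:**
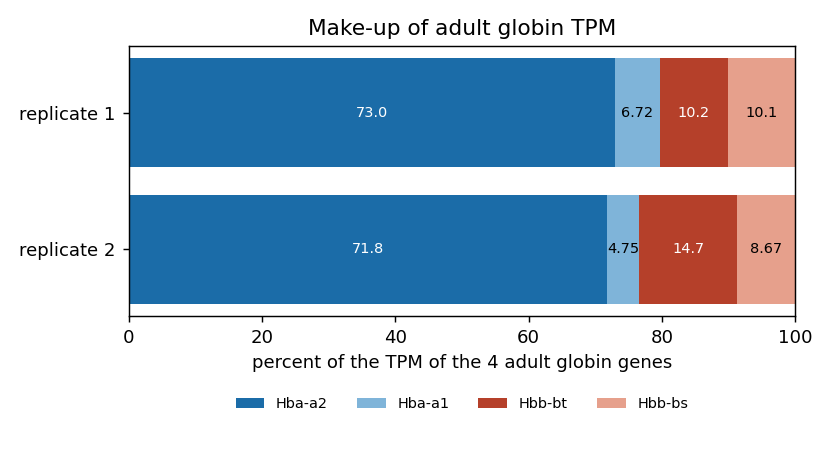
Percent of the TPM of the 4 adult globin genes held by each gene, as 1 bar per library that sums to 100. Hba-a2 held 73.0% and 71.8%, while Hbb-bt held 10.2% in replicate 1 and 14.7% in replicate 2.

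The alpha pair was split unevenly. Hba-a2 held 1566908 and 735167 expected counts in replicates 1 and 2, against 157286 and 52237 for Hba-a1. At gene level the ratio of Hba-a2 to Hba-a1 by TPM was 10.9 in replicate 1 and 15.1 in replicate 2 (13.0 ± 2.999). The Hba-a1 level includes a retained-intron transcript, described below. By the coding transcript alone, deposited TPM was 31857 and 16261 for Hba-a2 and 1330 and 470 for Hba-a1. The sequences that separate the pair are few. The annotated coding sequences, 426 bases each, differ at 1 base, base 3 of codon 127 (C577T, the base of the Hba-a1 mRNA first, counted from 1 at its annotated 5′ end). It lies at position 32284343 of chromosome 11 in Hba-a1 and at 32297160 in Hba-a2, in exon 3 of both.

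Outside that base, the annotated mRNAs of Hba-a1 (699 bases) and Hba-a2 (554 bases) are identical over the 538 positions they share. The Hba-a1 mRNA has 161 further bases at its 5′ end, and the Hba-a2 mRNA has 16 further bases at its 3′ end. Of the 50-base windows of the Hba-a2 mRNA, 66 of 505 (13.1%) occur in the transcripts of no other globin gene, against 211 of 650 (32.5%) for Hba-a1. Of these 211 windows, 161 reach into the further 5′ bases of the Hba-a1 mRNA. The transcripts of both genes have the same length in release M21 as in the deposited tables, which name release M4. The 161 bases lie within the 250 bases that precede the RefSeq start of Hba-a1, in the stretch nearly identical between the upstream windows of the pair. Reads without a separating base cannot be told apart by origin, and the split of the pair is the authors' estimate.

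The beta pair was split more evenly, and differently in the 2 libraries. Hbb-bt and Hbb-bs held 309387 and 279189 expected counts in replicate 1, and 206852 and 125197 in replicate 2. The ratio of Hbb-bt to Hbb-bs by TPM was 1.01 in replicate 1 and 1.70 in replicate 2 (1.36 ± 0.486). At gene level Hbb-bt was thus above Hbb-bs in both libraries, but in replicate 1 the levels were nearly equal. The Hbb-bs level includes a retained-intron transcript, described below. The main coding transcript of Hbb-bs alone had a deposited TPM of 2127 and 1461, against 4464 and 3339 for Hbb-bt. Their coding sequences, 441 bases each, also differ at 1 base, and 273 of 654 windows of the Hbb-bt mRNA (41.7%) occur in no other globin gene. The annotation of Hbb-bs changed between releases, with 778 bases in the deposited tables and 628 bases in release M21 for its coding transcript.

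The deposited posterior standard deviation measures how firmly reads were assigned. For each alpha gene it was 168 counts in replicate 1 and 84.5 in replicate 2, 0.162% of the count of either gene or less. For each beta gene it was 542 and 432 counts, 1.22 times the square root of the count or less. No globin gene exceeded 3 times the square root of its count in replicate 1, a limit that 54 of 8203 genes (0.658%) passed. The posterior spread covers the assignment of reads to the annotated transcripts, and not whether the annotated ends are right.

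Theta globin RNA was present at low levels. Hbq1b had a level of 146 coding-scaled TPM in replicate 1 and 145 in replicate 2, from 993 and 509 counts. Hbq1a stood at 22.04 and 17.8 (139 and 62.6 counts), with a posterior standard deviation of 3.45% and 6.37% of its count. At gene level Hbq1b was above Hbq1a by TPM in both libraries, 6.65 times in replicate 1 and 8.15 times in replicate 2 (7.40 ± 1.06). The Hbq1b level includes a retained-intron transcript, described below. By the coding transcript alone, deposited TPM was 6.87 and 6.71 for Hbq1b and 2.48 and 1.23 for Hbq1a. Together the theta genes reached 0.0545 and 0.0649 TPM for every 100 TPM of adult alpha globin (0.0597 ± 0.00735). Among the coding genes Hbq1b ranked 740 and 774, and Hbq1a 3423 and 3970.

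The theta genes differ more in sequence than the adult pairs. The coding sequences of Hbq1b and Hbq1a were 95.8% identical over 426 aligned bases, and 309 of 513 windows of the Hbq1b coding transcript (60.2%) and 351 of 555 of the Hbq1a transcript (63.2%) occur in no other globin gene. Against Hba-a2 the coding sequence of Hbq1b was 66.4% identical. The upstream runs of both theta genes, printed above, are nearly the same.

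Embryonic globin RNA was at the edge of detection. Hbb-y, an embryonic beta-like gene, and Hbb-bh1, another, had 0 counts in both libraries. A count of 0 allows up to 3 counts, or 0.0804 CPM in replicate 1 and 0.134 CPM in replicate 2. Against this floor per library, Hbb-y was at least 94686-fold lower than Hbb-bt in replicate 1 and at least 63697-fold lower in replicate 2. Hbb-bh1 was at least 85241-fold and 57819-fold lower. All 584 windows of 50 bases in the release M21 transcript of Hbb-y and all 564 in that of Hbb-bh1 occur in no other globin gene.

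Hbb-bh2, a further beta-like gene that lies between the adult pair and Hbb-bh1 and is grouped here with the embryonic genes, had 6 counts in replicate 1 and 0 in replicate 2. Per effective length it was 25552-fold lower than Hbb-bt in replicate 1 (95% Clopper-Pearson interval 11739 to 69627) and at least 36584-fold lower in replicate 2. Hba-x, the embryonic alpha-like gene called zeta, had 7 and 12 counts, or 0.711 and 2.32 coding-scaled TPM. Relative to Hba-a2 this was 375705-fold lower in replicate 1 (182347 to 934471) and 98877-fold lower in replicate 2 (56605 to 191359), per effective length. All embryonic genes together held 13 of 2313915 globin counts in replicate 1, or 0.000562% (0.000299 to 0.000961), and 12 of 1120037 in replicate 2, or 0.00107% (0.000554 to 0.00187). These intervals overlap, and here and below intervals and floors cover counting error only.

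Transcripts with a retained intron took large shares of some globin genes and almost none of Hba-a2. The Hba-a1 transcript annotated with a retained intron held 54.6% and 56.3% of the TPM of Hba-a1 in replicates 1 and 2 (55.5% ± 1.21), with 65798 and 23330 counts. The matching transcript of Hba-a2 had 30.7 and 17.3 counts, and the coding transcript held 100% of Hba-a2 in both libraries. Both retained-intron transcripts are 494 bases long, keep 113 of 122 bases of intron 1, and differ only at the base described above. That base lies 286 bases beyond the end of the retained intron. Neither transcript has a 50-base window of its own (0 of 445), so the intron is not assigned to an alpha gene by its own letters.

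The retained-intron transcript of Hbb-bs held 51.6% in replicate 1 and 25.5% in replicate 2, with 110179 and 22299 counts. It has 549 bases as deposited and 344 bases in release M21, from which its type was taken. The main coding transcript of Hbb-bs held 48.4% and 74.5%, so the order of the transcripts differed between the libraries. The effective length of the gene was accordingly 470 bases in replicate 1 and 568 in replicate 2. A further coding transcript held 0.0200% and 0.0900%. Hbb-bt has 1 annotated transcript in these tables, and no such share can be formed for it.

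The retained-intron transcript of Hbq1b, which keeps all 106 bases of intron 2, held 58.3% in replicate 1 and 33.0% in replicate 2. The coding transcript held 41.7% and 67.0%. The retained-intron share was thus lower in replicate 2 for Hbb-bs and Hbq1b and similar in both libraries for Hba-a1.

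**Figure D3:**
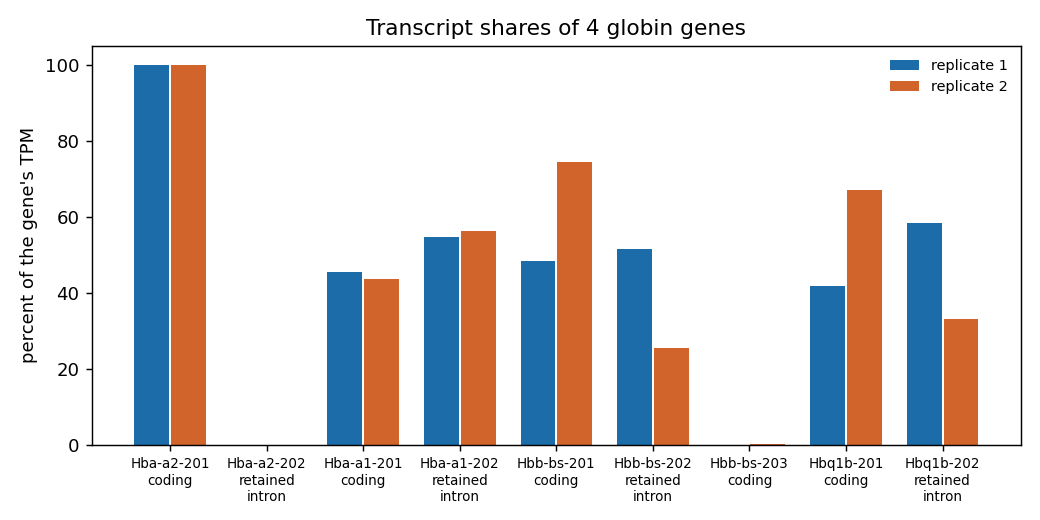
Percent of the TPM of its gene held by each annotated transcript, with 1 bar per library. The coding transcript of Hba-a2 stands at 100% in both libraries, while the retained-intron transcript of Hba-a1 stands at 54.6% and 56.3% and the shares of the Hbb-bs and Hbq1b transcripts change order between the libraries.

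The libraries were compared gene by gene after scaling with TMM factors, as the log2 ratio of replicate 2 over replicate 1. Of the globin genes 6 had a mean count of 100 or more, the adult and theta genes, and 0 of these 6 were 2-fold apart, against 10.5% of all 8203 genes with such counts. In replicate 2 the level of 4.69% of all genes was higher by that much, and in replicate 1 that of 5.8%. These shares were not matched for counts. The median log2 ratio of the 6 globin genes was -0.24, against -0.03 for all genes, with 5 of 6 lower in replicate 2. Each side is 1 library, so this is a description of these libraries with no replicate check. The other 4 genes, all embryonic, were too low for a ratio.

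Hba-a1 had the ratio farthest from 0, -0.71 (-0.73 to -0.70), at percentile 11.1 of all genes. Hba-a2 had -0.21 (-0.22 to -0.21) and Hbb-bs -0.28 (-0.29 to -0.27). These ratios are per gene, and none is given per transcript. The transcript shares of Hbb-bs and Hbq1b, given above, changed between the libraries. At gene level Hbb-bt alone was higher in replicate 2, at 0.30 (0.29 to 0.31). It was also higher there by coding-scaled TPM (0.29), DESeq2 size factors (0.30) and library size (0.15), but lower by deposited TPM (-0.42), a scale on which the median of all genes was -0.67. The theta genes had -0.09 (-0.24 to 0.07) for Hbq1b and -0.26 (-0.72 to 0.18) for Hbq1a, intervals that include 0. Summed by family, the adult alpha genes had -0.25 (-0.26 to -0.25) and the adult beta genes 0.05 (0.05 to 0.06).

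**Figure D4:**
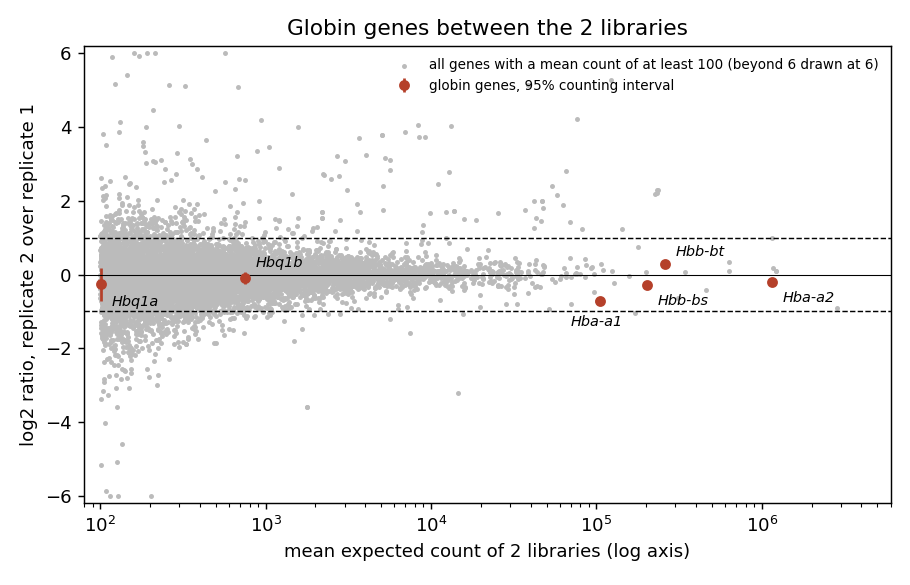
Log2 ratio of replicate 2 over replicate 1 against the mean expected count (log axis), with globin genes in red and all genes with mean counts from 100 upward in grey; dashed lines mark 2-fold. All 6 globin genes lie between -0.71 and 0.30.

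Genes next to the clusters were far lower than the adult globins. Within 100 kb of the alpha cluster, 4 of 6 other protein-coding genes were detected. Nprl3, whose introns hold the enhancers of the alpha globin genes, had the highest level, 197 and 173 coding-scaled TPM (185 ± 16.6). Hbq1b, at 146 and 145, stood somewhat under this level, and Hba-a1, at 26051 and 15611, far above it. Snrnp25, a gene for a small ribonucleoprotein, stood at 47.8 ± 23.0, and Mpg, a DNA repair glycosylase gene, at 30.6 and 35.1. Mpg and Nprl3 overlap on opposite strands, and whether the counting used strand is not stated. Rhbdf1 was detected at 1.33 and 7.83, Sh3pxd2b stood at 0.589 ± 0.423 and the receptor gene Il9r had 0 counts in both libraries.

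Around the beta cluster, the 12 other protein-coding genes in the tables were olfactory receptor genes. Of these, 6 had 0 counts in both libraries and 1, Olfr67, was detected, at 5.06 and 1.89 coding-scaled TPM from 60 and 12 counts. Olfr67 was the nearest protein-coding gene on the side of Hbb-bt. Olfr66, the nearest on the side of Hbb-y, had 0 counts in both libraries.

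**Figure D5:**
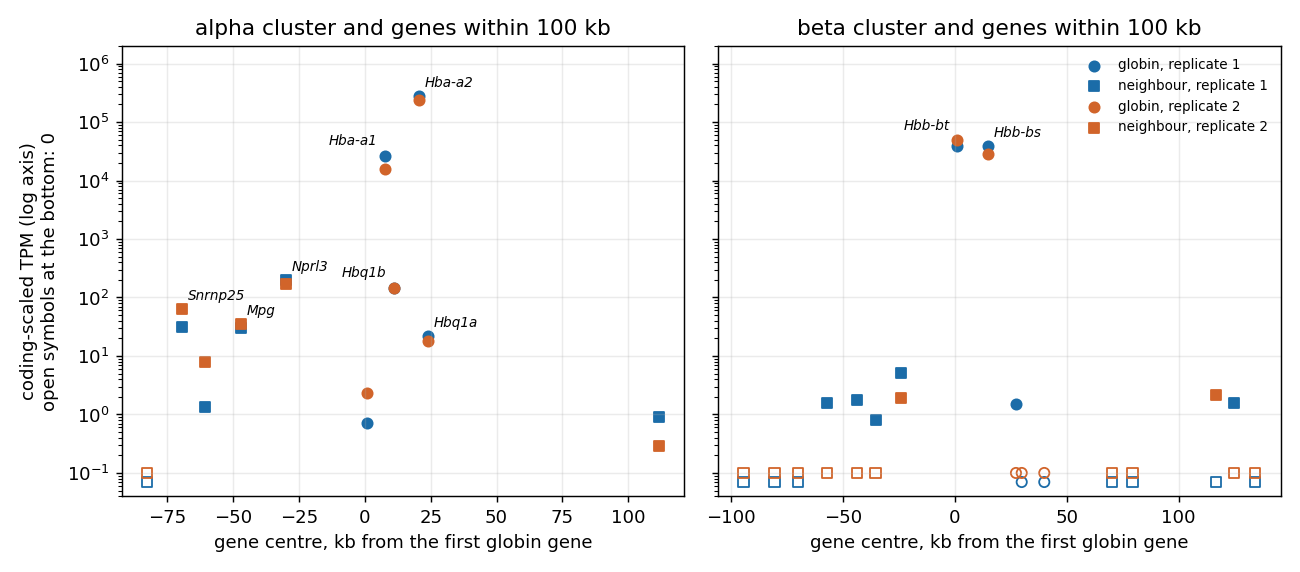
Level of globin genes (circles) and other protein-coding genes (squares) in coding-scaled TPM (log axis) by the distance of the gene centre from the globin gene of lowest coordinate, for the alpha cluster (left) and the beta cluster (right), with 1 symbol per library and open symbols for 0. Adult globin genes stand at 15611 or above, and Nprl3, the highest neighbour, at 197 and 173.

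Genes that supply heme and regulate globin were detected throughout, at levels under those of the adult globins. For the 9 genes of the heme supply list, all of them detected, the median level was 829 ± 62.2 coding-scaled TPM. Alas2, whose product makes the precursor from which erythroid heme is built, was highest at 3833 ± 345. Urod, an enzyme of the middle of the pathway, stood at 1304 ± 366. Eif2ak1, the kinase that slows globin synthesis when heme is short, stood at 829 ± 62.2. Alad, an early enzyme of the pathway, was lowest at 111 ± 34.1.

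The 13 globin gene regulators were likewise all detected, and their median level was 108 ± 11.3. Sox6, a repressor of embryonic beta-like globin in the mouse, was highest at 798 ± 127. Zfpm1, the partner protein of GATA1, stood at 194 and 483 in replicates 1 and 2, and Ldb1, which holds the beta locus control region and promoter together, at 39.4 and 22.6. Klf1, which binds CACCC elements of adult beta globin, stood at 106 ± 24.2, and its relative Klf3 at 108 ± 11.3. Bcl11a, another repressor of embryonic globin, was lowest at 5.06 and 10.6, under both theta genes. Zbtb7a, a globin repressor in human cells, stood at 12.4 ± 3.36. By TMM-scaled counts, 0 of 9 heme supply genes and 0 of 13 regulators were at least 2-fold apart between the libraries, against 10.5% of all genes. That share was not matched for counts. By coding-scaled TPM, Zfpm1 and Bcl11a were more than 2-fold apart, both higher in replicate 2.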

How the data were processed

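For every library the submitters deposited values per gene and per transcript. The assembly is mm10 per the labels, and text records deposited beside the tables name GENCODE release M4; which aligner and quantifier were used is not given in the sources used here. The columns made by the authors are, per the file headers, expected counts (estimates that need not be whole), posterior mean counts, and the posterior standard deviation of a count, used as an uncertainty score. Further deposited columns are TPM, posterior mean TPM, FPKM (not used) and, for transcripts, the percent of the TPM of their gene.

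Symbols, coordinates and transcript sequences came from GENCODE release M21 (GRCm38, the same assembly), which matched 98.0% of 43346 Ensembl genes. Other features, with 8 and 28 counts, did not enter library sizes.

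Ratios between libraries used rounded expected counts with edgeR 4.0.16 TMM factors in R 4.3.3 (DESeq2 1.42.0 size factors as an alternative), and exact Clopper-Pearson 95% intervals. The scaling and ratio steps were tested on simulated data. Other steps ran in Python 3.11.15 (pandas 2.3.3, numpy 2.4.6, Biopython 1.88, scipy 1.17.1, matplotlib 3.10.9). Coding sequences were aligned globally.

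The members, the gene lists (heme supply, globin regulators, other globin-fold genes, cell type markers) and the motifs were chosen with earlier results of these data known. All members and list genes may be named, as well as genes within 100 kb of a cluster and the 5 other protein-coding genes of highest mean TPM. Gene likeness in pattern was not measured, as there are 2 libraries. Protein sequences were not used here.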

Additional observations from a re-analysis of the deposited data

How the results depend on the processing

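With 1 group of 2 libraries no test was run. No paired analysis was possible because the labels give a single group. Leaving out a library gave adult globin shares of coding TPM of 32.8% to 38.8% and alpha to beta ratios of 3.27 to 3.93. Ratios of Hba-a2 to Hba-a1 were 10.9 to 15.1, and those of Hbb-bt to Hbb-bs 1.01 to 1.70. Theta levels were 0.0545 to 0.0649 per 100 alpha TPM, and embryonic shares of globin TPM 0.000572% to 0.000706%. The leading transcript of a gene is here the one with the highest mean share over both libraries. Its median share over Hba-a2, Hba-a1, Hbb-bs and Hbq1b was 51.5% in replicate 1 and 70.7% in replicate 2. In replicate 1 it was not the larger transcript of Hbb-bs (48.4%) or of Hbq1b (41.7%). With counts not divided by length, the adult share was 10.1%, the alpha to beta ratio 2.65, the theta level 0.0691 per 100 and the embryonic share 0.000817% (0.000639% by TPM). With counts per annotated length the adult share was 31.2%, and of all features of the table it was 3.31%. Posterior mean TPM, which gives genes at 0 a small value, put the embryonic share at 0.00102%. By the ratio of deposited TPM 3 of the 6 globin genes were at least 2-fold apart and the log2 ratio of Hbb-bt was -0.42, against 0.30 with TMM. The median of all genes was then -0.67, against -0.03 with TMM. Deposited TPM differs from coding-scaled TPM in this ratio by the same -0.71 for every gene, the log2 ratio of the coding shares of TPM. By coding-scaled TPM 0 of 6 globin genes were 2-fold apart and Hbb-bt had 0.29. With no filter on counts 2 genes were 2-fold apart, the low-count Hba-x and Hbb-bh2. Of 28 alternatives to the main quantities that kept both libraries, 19 stayed within the spread of the libraries or within 1.5 times a count.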

Other observations

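Of the globin-fold genes outside the clusters, 3 were looked up. Mb (myoglobin), Cygb (cytoglobin) and Ngb (neuroglobin) had 0 counts in both, which allows up to 0.0804 CPM in replicate 1 and 0.134 CPM in replicate 2. The pseudogenes Hbb-bh0 and Hbb-bh3 of the beta cluster also had 0 counts in both libraries. The effective length of Hbb-bh0 was only 2.89 bases in replicate 1 and 11.96 in replicate 2, so its 0 says little about absence.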
